A study of Mus musculus with 4 samples.

Results

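The 38 genes described here belong to the interferon response, the set of genes that cells switch on when they sense interferon. They were taken by their symbols from the 4 gene tables, which together listed 40091 genes, and all 38 were present. The data came from single-nucleus RNA sequencing (snRNA-seq) of the mouse thalamus, in which messenger RNA molecules of single nuclei are counted through unique molecular identifiers (UMIs). All animals were adult C57BL6 mice of genotype WT (wild type), 7 to 8 weeks old, that received a stereotactic injection into the right ventral posteromedial and ventral posterolateral nuclei (VPM and VPL). In the COL group a glass micropipette delivered 0.01 U of Coll IV (type IV collagenase) in 10 nl of saline. The enzyme digests the vessel wall and causes a bleed. Mice of the NS group were given 10 nl of saline. Tissue was taken 7 days later. Each group had 2 libraries, and each library pooled 3 mice, so an animal cannot be told from another within a library, and all p-values below measure only the spread between pooled libraries. With 2 libraries against 2, an exact permutation test of a single value cannot give a two-sided p below 0.333.

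Type I interferons bind a receptor made of the Ifnar1 and Ifnar2 chains. The receptor activates transcription factors, among them Stat2, which joins Irf9 in a complex that binds a DNA element named the interferon-stimulated response element (ISRE). Interferon gamma uses another receptor and acts through a DNA element named the gamma-activated site (GAS), and one of its targets is the transcription factor Irf1. The induced proteins sense foreign nucleic acids, block viral translation or entry, attack pathogen vacuoles and tag proteins with ubiquitin-like molecules. In the brain, microglia and infiltrating blood cells are known as strong responders, and glia and neurons can respond as well.

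The nuclei kept numbered 9673 and 10422 in the NS libraries, with 77546840 and 68723738 UMIs, and 5931 and 6265 in the COL libraries, with 69489118 and 69495483 UMIs. Nuclei were clustered without the genes of this list among the variable genes, and clusters were called by cell type from marker lists. Neurons numbered 5025, 4371, 2932 and 2701 in NS libraries 1 and 2 and COL libraries 1 and 2. The corresponding numbers were 2119, 3521, 1627 and 1558 for oligodendrocytes, 1195, 1059, 193 and 262 for astrocytes, 321, 344, 370 and 542 for microglia, and 390, 421, 208 and 303 for oligodendrocyte precursor cells (OPC). The macrophage cluster held 3, 5, 320 and 480 nuclei, too few in NS for a level to compare with. A gate on markers in single nuclei, an alternative to the clusters, gave 39, 62, 289 and 386. Most nuclei of a cell type fell into different clusters in NS and COL. Microglia lay in cluster 12 in NS and in clusters 10 and 23 in COL, and cluster 23 was led by the proliferation genes Top2a and Mki67. Oligodendrocytes lay in clusters 1 and 3 against 4 and 16, and astrocytes in cluster 5 against 17. OPC cluster 11 and neuron clusters 2, 7, 8, 13 and 19 held at least 20 nuclei of every library. Libraries shared 102 barcodes in all. Levels are given as CPM, the UMIs of a gene scaled to the same total of UMIs in each cell type of each library. They are not adjusted for transcript length, so they compare libraries and cell types for the same gene and give no order of abundance between genes.

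The letters of the 2 binding elements were looked for in the RefSeq promoter windows (build GRCm38.p6), because the members were grouped by pathway and not by a shared sequence. The ISRE was searched as the letters TTTC, any 2 bases and TTTC again, and the GAS as TTCNNNGAA, on both strands of the 250 bases before the start of each gene, and overlapping matches were counted. A window was found for 31 of the 38 genes (37 windows). The ISRE letters were present in 13 of these 37 windows (35.14%) and in 2.98% of all 32851 windows. The GAS letters were present in 6 of the 37 windows (16.22%) and in 7.02% of all windows. The following stretches are shown for genes that were higher in COL in at least 2 cell types and hold the ISRE letters, and for Irf1 with its GAS letters. Capitals mark the ISRE matches and, in Irf1, the GAS match, and each stretch is written from 5′ to 3′ on the strand of its gene.
Ddx60 (chr8:61928004-61928086, plus strand): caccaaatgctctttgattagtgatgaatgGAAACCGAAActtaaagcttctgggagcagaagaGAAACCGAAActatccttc
Ifit1 (chr19:34640755-34640843, plus strand): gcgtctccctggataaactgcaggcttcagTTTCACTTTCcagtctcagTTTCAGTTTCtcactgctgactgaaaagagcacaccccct
Gbp7 (chr3:142530253-142530322, plus strand): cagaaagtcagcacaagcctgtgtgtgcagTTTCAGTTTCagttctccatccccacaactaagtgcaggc
Rsad2 (chr12:26456533-26456602, minus strand): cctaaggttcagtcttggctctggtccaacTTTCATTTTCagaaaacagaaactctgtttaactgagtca
Trim30a (chr7:104465194-104465259, minus strand): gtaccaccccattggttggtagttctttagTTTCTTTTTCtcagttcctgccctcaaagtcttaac
Bst2 (chr8:71537557-71537632, minus strand): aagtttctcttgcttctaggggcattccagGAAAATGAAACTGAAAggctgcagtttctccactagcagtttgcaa
Stat2 (chr10:128270248-128270315, plus strand): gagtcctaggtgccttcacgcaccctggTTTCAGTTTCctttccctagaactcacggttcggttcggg
Irf1 (chr11:53769894-53769962, plus strand): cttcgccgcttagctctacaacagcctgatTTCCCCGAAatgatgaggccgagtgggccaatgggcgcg
Ddx60, Ifit1 and Bst2 each held 2 matches, and those of Bst2 overlapped. A match in these letters is a description of the sequence and does not show that a factor bound there.

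The summed level of the 38 genes was higher in both COL libraries than in both NS libraries in each of the 5 cell types compared. In neurons the sum was 100.6 and 99.2 CPM in NS and 140.2 and 167.0 CPM in COL, a ratio of the group means of 1.54. Oligodendrocytes had 141.9 and 142.4 CPM against 237.6 and 278.9 CPM (ratio 1.82), and OPC had 227.0 and 215.0 CPM against 392.3 and 531.8 CPM (ratio 2.09). The astrocyte sums were 285.1 and 271.4 CPM in NS and 435.8 and 553.8 CPM in COL, a ratio of 1.78. Microglia started from the highest NS level of these types, 934.5 and 1065.3 CPM, and reached 1448.5 and 1880.0 CPM (ratio 1.66). COL library 2 stood above COL library 1 in all 5 types, and the NS libraries lay close together. Macrophages had 2475 and 2423 CPM in the COL libraries, and the few T and NK cells had 2724 and 2571 CPM. Over all nuclei of a library the sum went from 134.1 and 134.5 to 264.9 and 381.3 CPM, a ratio of 2.41, in which a change in the number of cells of a type and a change in RNA per cell cannot be told apart. In these sums 29 of 38 genes were called higher by the test described below and none lower, with 5.02% of all genes called higher and 4.43% lower. Macrophages made up 2.19% and 3.46% of all UMIs in the COL libraries but 20.4% and 22.0% of the UMIs of the 38 genes.

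**Figure D1:**
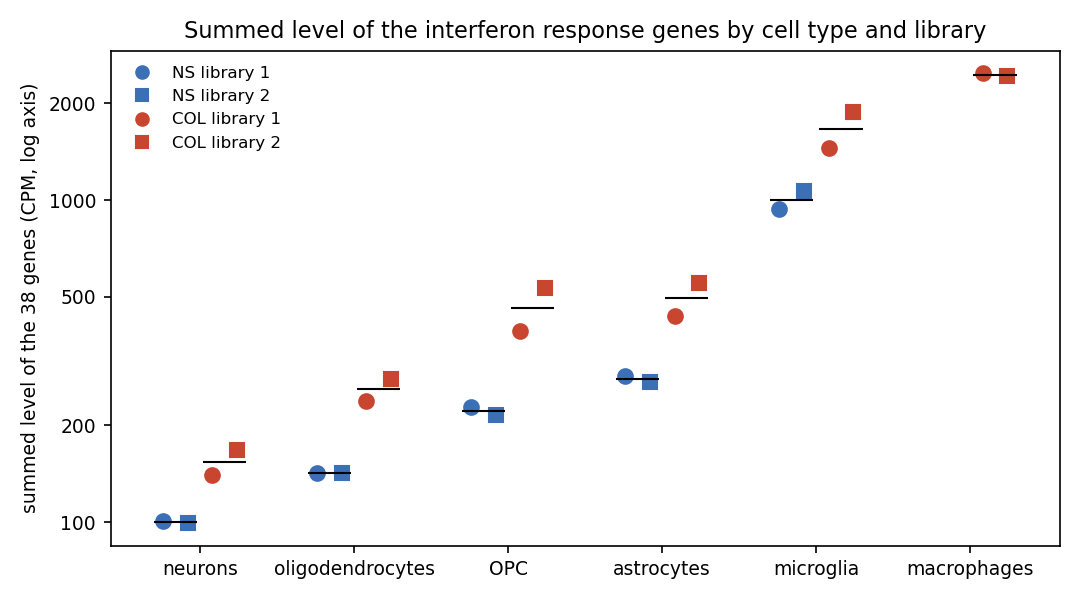
Summed level of the 38 genes in CPM (log axis) in each library, by cell type. Blue symbols are the NS libraries, red symbols the COL libraries, and bars mark the mean of 2 libraries. In neurons, oligodendrocytes, OPC, astrocytes and microglia both red symbols lie above both blue ones; macrophages are shown for COL alone.

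Of the named cell types, 7 clusters held at least 20 nuclei of every library, and in 6 of them both COL sums lay above both NS sums. The exception was vascular cluster 24, with 1328 and 737.1 CPM in NS and 864.5 and 1000.4 CPM in COL, overlapping values. OPC cluster 11 had 265.1 and 219.8 CPM in NS (82 and 101 nuclei) and 393.8 and 536.5 CPM in COL. Neuron cluster 7 had 91.6 and 92.9 CPM against 146.1 and 195.7 CPM, and cluster 8 had 93.7 and 92.7 CPM against 125.0 and 169.4 CPM. Neuron cluster 2 had 97.9 and 108.6 CPM (81 and 148 nuclei) against 115.6 and 159.6 CPM, and cluster 13 had 77.3 and 79.2 CPM (277 and 40 nuclei) against 114.3 and 123.5 CPM. Cluster 19, a neuron cluster led by Kcnmb2 and Hs3st4, had 95.1 and 77.5 CPM in NS and 317.0 and 229.3 CPM in COL, with 69, 74, 118 and 83 nuclei. For astrocytes such a comparison had a value from NS library 1 alone. The 31 NS library 1 nuclei that fell into cluster 17, where nearly all COL astrocytes lay, had 96 UMIs of the list. Their sum was 523.0 CPM, which is within the COL values of that cluster (436.6 and 553.9 CPM). A single astrocyte nucleus of NS library 1 held 67 UMIs of the list, and whether it lay in cluster 17 was not examined.

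Each gene was tested with edgeR's quasi-likelihood test on UMI counts summed per library, with Benjamini-Hochberg adjustment over all genes tested in that cell type and a threshold of 0.05. Oligodendrocytes gave the most calls. In them 20 of 28 tested genes were higher in COL and none was lower, where 10.1% of all genes tested were called higher. In astrocytes 11 of 26 were higher (7.77% of all genes tested), in microglia 11 of 26 (13.8%) and in OPC 10 of 18 (8.31%). No gene of the list was called lower in COL in these types, where 12.5% of all genes tested were called lower in oligodendrocytes, 9.09% in astrocytes, 14% in microglia and 10.4% in OPC. DESeq2 called 1 of 21 genes with an adjusted p in astrocytes, 6 of 26 in microglia and 2 of 17 in OPC, all higher, where it called 4.39%, 7.52% and 3.69% of all genes higher. Each library was also left out in turn (NS 1, NS 2, COL 1, COL 2). Such a fit has 1 library in a group, so its spread comes from the other group alone, and it shows only whether a call hung on 1 library. The calls that held without each library in turn were 13 of 20 in oligodendrocytes, 1 of 11 in astrocytes (Trim30a), 5 of 11 in microglia (Stat2, Eif2ak2, Mx1, Rnf213 and Sp100) and 2 of 10 in OPC (Ifnar2 and Ddx60). The oligodendrocyte calls that were lost without at least 1 library were those of Stat2, Irf1, Ifitm2, Gbp7, Usp18, Rsad2 and Samd9l. The median log2 fold change of the list members tested was 2.64 in oligodendrocytes, 1.03 in OPC, 0.85 in astrocytes and 0.88 in microglia, while that of all genes tested lay between -0.03 and 0.0028. The members tested had passed a filter on low counts, and some passed it only through their COL counts, so these shares and medians describe the genes that passed. Stat2, Ddx60 and Trim30a were called in 4 of the 5 cell types, all but neurons. Eif2ak2, Oasl2, Ifitm3, Usp18, Parp9 and Rnf213 were called in 3 types, 5 genes in 2, 12 genes in 1 and 12 genes in none.

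**Figure D2:**
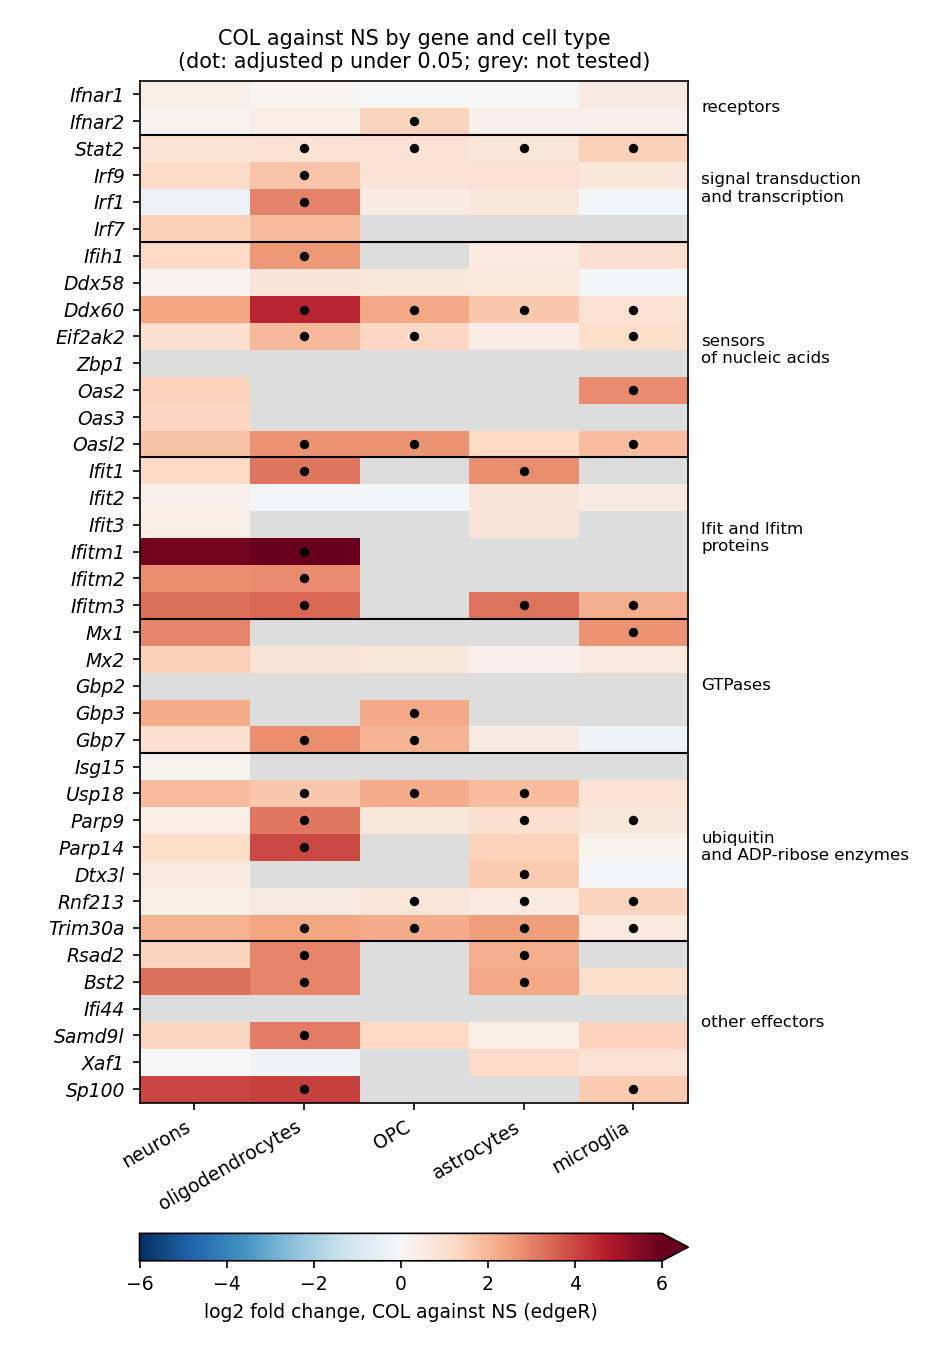
Log2 fold change of COL against NS (edgeR) for each of the 38 genes, in rows grouped by role, in 5 cell types. Dots mark an adjusted p under 0.05, grey cells were not tested because of low counts, and the colour scale ends at 6. The colour of Ifitm1 in oligodendrocytes is a fitted value over NS sums of 0 UMIs and gives no size. The oligodendrocyte column has 20 dots and the neuron column none.

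**Figure D3:**
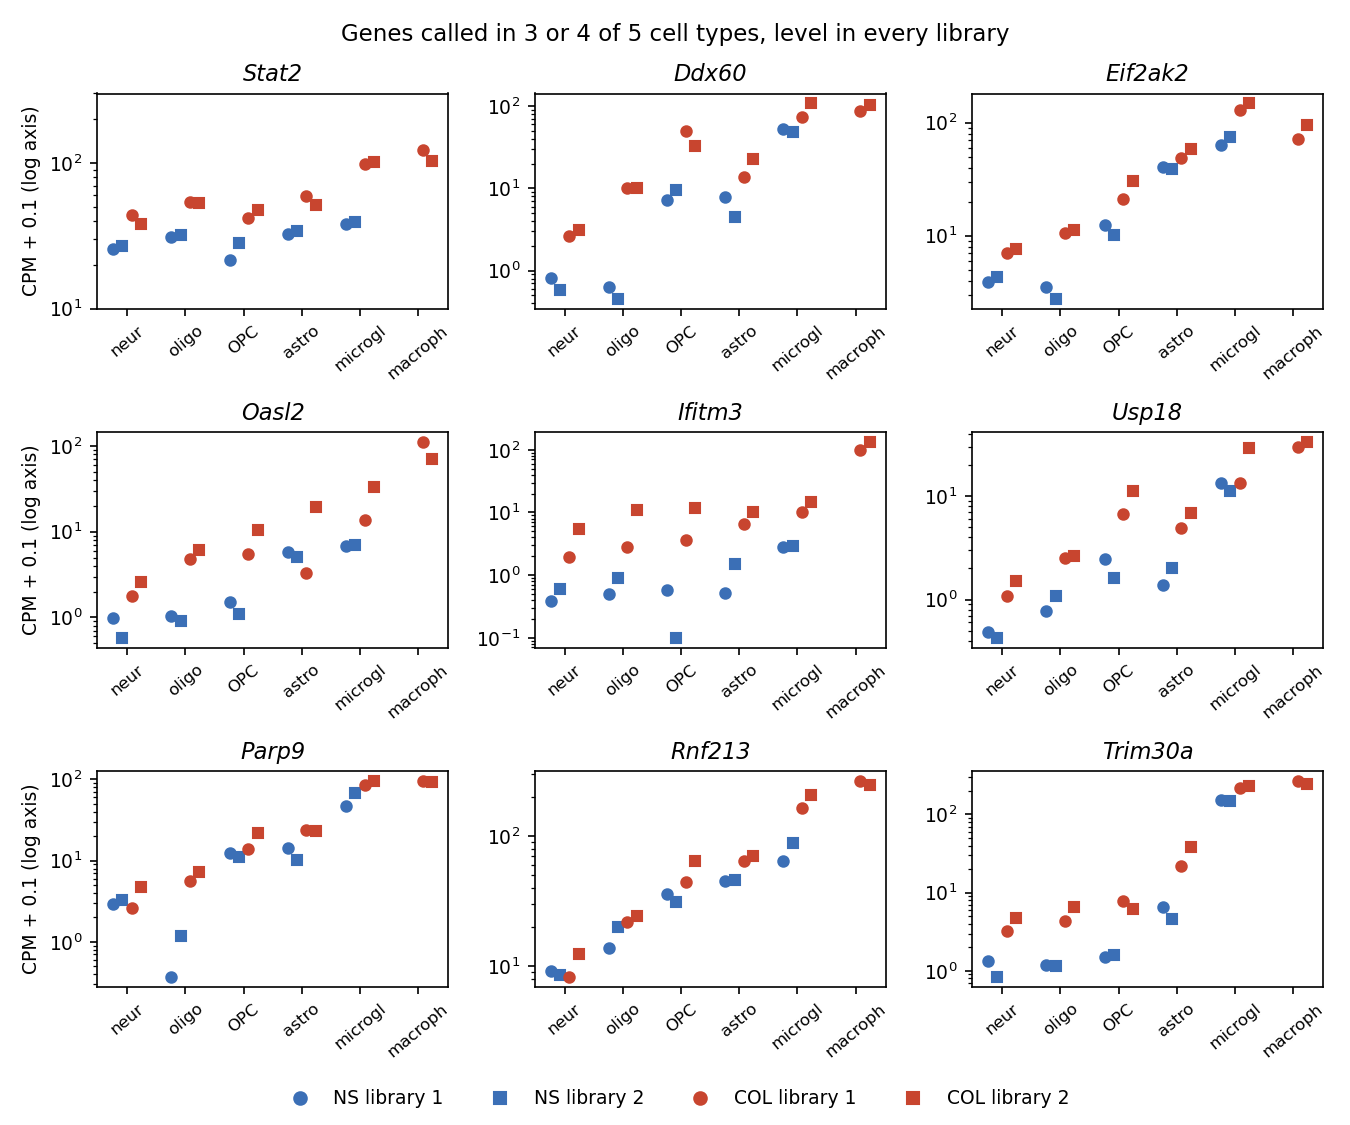
Level in every library (CPM + 0.1, log axis) of the 9 genes called in 3 or 4 of 5 cell types, with blue symbols for NS, red symbols for COL, circles for library 1 and squares for library 2. Stat2 and Trim30a are higher in both COL libraries in every cell type shown for both groups, whereas Oasl2 in astrocytes, Usp18 in microglia and Parp9 and Rnf213 in neurons overlap between the groups.

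Of the receptor chains, Ifnar2 passed the test in OPC alone. Ifnar1 was at 13.7 and 12.8 CPM in NS neurons and 14.1 and 15.9 CPM in COL neurons, and it passed the test in none of the 5 types. Ifnar2 in OPC was at 26.6 and 25.2 CPM in NS and at 51.4 and 73.6 CPM in COL. Both COL values lay above both NS values, with a log2 fold change of 1.31 (SE 0.22, edgeR adjusted p = 0.00137). This call held when any 1 library was left out. The change of Ifnar2 in OPC exceeded that in neurons by 1.2 on the log2 scale (SE 0.229, edgeR interaction term, adjusted p = 2.13e-05). It was the sole gene of the list called in that test, where 2.25% of all genes were called higher and 1.14% lower. The share of the list called there was near that of all genes. In microglia, which had the highest Ifnar2 level of the 5 types, the values overlapped between the groups (106.4 and 142.0 CPM in NS, 137.9 and 162.5 CPM in COL).

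Among the transcription factors, Stat2 rose in 4 glial types, and without each library in turn the call held in microglia but not in oligodendrocytes, astrocytes or OPC. Its level in microglia was 37.7 and 39.0 CPM in NS and 98.2 and 100.8 CPM in COL. The groups did not overlap, and the log2 fold change was 1.42 (SE 0.22, edgeR adjusted p = 0.000892). In oligodendrocytes Stat2 went from 31.0 and 31.7 to 53.9 and 53.3 CPM, a log2 fold change of 0.85 (SE 0.171, edgeR adjusted p = 0.0119). The log2 fold change was 0.75 in astrocytes and 0.89 in OPC (edgeR adjusted p = 0.0283 and 0.0174). Irf9, its partner, rose in oligodendrocytes from 3.66 and 4.53 to 13.8 and 12.1 CPM (log2 fold change 1.72, SE 0.284, edgeR adjusted p = 0.00705). Its log2 fold change was 0.92 in astrocytes, 0.85 in OPC and 0.70 in microglia, and it passed the test in none of these. Irf1 rested on few UMIs in oligodendrocytes, 3 and 3 in NS against 27 and 22 in COL, and rose there by 2.98 on the log2 scale (SE 0.563, edgeR adjusted p = 0.00994), a call lost without NS library 2. The Irf1 change in oligodendrocytes exceeded that in neurons by 3.29 on the log2 scale (SE 0.618, edgeR interaction term, adjusted p = 0.00146). That test called 6 genes of the list, with 4.45% of all genes called higher and 3.97% lower. The count of 6 fell without either NS library or COL library 2 and rose without COL library 1. DESeq2 called 2 of the 15 genes of the list to which it gave an adjusted p. The shares of all genes called in these other fits are not given here. In microglia Irf1 had 21.5 and 22.3 CPM in NS and 19.9 and 19.6 CPM in COL, a log2 fold change of -0.11 that did not pass the test. Irf7, a factor that amplifies interferon production, did not pass the test where it could be tested, with log2 fold changes of 1.43 in neurons and 1.89 in oligodendrocytes. In COL macrophages it was at 21.7 and 16.2 CPM.

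Of the 8 sensors of nucleic acids, Ddx60, a helicase linked to RNA sensing, rose in 4 types. It had 4 UMIs in each NS oligodendrocyte sum and 95 and 103 in COL. In CPM these are 0.542 and 0.356 against 10.0 and 10.1, a log2 fold change of 4.58 (SE 0.402, edgeR adjusted p = 0.000842). In OPC Ddx60 went from 7.12 and 9.57 to 50.2 and 32.6 CPM (log2 fold change 2.32, SE 0.331, edgeR adjusted p = 0.0005). COL macrophages had 86.3 and 101.8 CPM. In astrocytes its log2 fold change was 1.62 and in microglia 0.90 (edgeR adjusted p = 0.0174 and 0.0184). Eif2ak2, the kinase PKR that halts translation, rose in oligodendrocytes, OPC and microglia. In microglia it went from 63.3 and 75.2 to 128.5 and 148.1 CPM (log2 fold change 1.04, SE 0.198, edgeR adjusted p = 0.00265).

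Of the oligoadenylate synthetase family, Oasl2 rose in oligodendrocytes, OPC and microglia by 2.69, 2.72 and 1.86 on the log2 scale (edgeR adjusted p = 0.00548, 0.00808 and 0.0287). In astrocytes its COL libraries stood apart from each other, 3.20 and 19.5 CPM, around the NS values of 5.75 and 4.99 CPM. Oas2 had too few UMIs to be tested in oligodendrocytes, astrocytes and OPC, and it passed the test in microglia. It had 0 and 3 UMIs there in NS against 23 and 44 in COL, a ratio of 7.38 (95% counting interval 2.42 to 36.7). That interval covers counting error only and leaves out the spread between libraries. Oas3 was at 0 or 1 UMI in every microglial sum and at 31 and 38 UMIs in COL macrophages. Ifih1 (MDA5), a sensor of long double-stranded RNA, rose in oligodendrocytes by 2.58 (SE 0.459, edgeR adjusted p = 0.00841). Ddx58 (RIG-I) and Zbp1 passed the test in none of the 5 types, and Zbp1 had too few UMIs to be tested in any of them. Genes of a family can share sequence, and how the counting split such reads is not given in the sources used here.

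Of the Ifit and Ifitm proteins, which bind foreign RNA and block virus entry, Ifitm1 had 0 UMIs in both NS sums of oligodendrocytes and 17 and 43 in COL. Against a floor of 3 UMIs over the NS group the COL level was at least 18.99-fold higher (edgeR adjusted p = 0.00689). Ifitm3 rose in oligodendrocytes, astrocytes and microglia by 3.44, 3.27 and 2.18 on the log2 scale (edgeR adjusted p = 0.0125, 0.00806 and 0.0208). COL library 2 carried more Ifitm3 than COL library 1 in oligodendrocytes, 10.7 against 2.75 CPM, and both exceeded the NS values of 0.407 and 0.80 CPM. Ifitm2 rose in oligodendrocytes by 2.83 (SE 0.578, edgeR adjusted p = 0.0124). Ifit1 had 1 and 4 UMIs in NS oligodendrocytes and 20 and 28 in COL (log2 fold change 3.20, edgeR adjusted p = 0.00982). In astrocytes Ifit1 went from 1.28 and 1.11 to 6.41 and 10.0 CPM (log2 fold change 2.80, SE 0.538, edgeR adjusted p = 0.00755). Ifit2 passed the test in none of the 5 types, nor did Ifit3 in neurons and astrocytes, where it could be tested. Ifit2 in oligodendrocytes had 8.27 and 5.60 CPM in NS and 4.44 and 7.39 CPM in COL, overlapping values.

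Among the GTPases, Mx1 in microglia went from 4.04 and 6.96 CPM to 20.5 and 46.5 CPM, a log2 fold change of 2.67 (SE 0.565, edgeR adjusted p = 0.00491). Gbp7, a guanylate-binding protein, rose in oligodendrocytes by 2.77 (edgeR adjusted p = 0.0111) and in OPC by 2.03 (edgeR adjusted p = 0.00659). In OPC its values were 2.85 and 4.53 CPM in NS and 11.96 and 17.2 CPM in COL, near those of COL macrophages (7.90 and 16.6 CPM). Gbp3 had 4 and 1 UMIs in NS OPC and 9 and 17 in COL (log2 fold change 2.28, SE 0.643, edgeR adjusted p = 0.0241), a call lost when any 1 library was left out. Gbp7 in microglia gave 26.9 and 27.9 CPM in NS against 16.9 and 27.3 CPM in COL and did not pass the test. Mx2 passed it in none of the 5 types, and Gbp2 had too few UMIs to be tested in any of them.

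The enzymes of ubiquitin-like and ADP-ribose tags gave calls in all 4 glial types. Trim30a, a tripartite-motif protein that dampens inflammatory signalling, went from 6.39 and 4.44 CPM in NS astrocytes to 21.6 and 38.5 CPM in COL. Its log2 fold change there was 2.51 (SE 0.351, edgeR adjusted p = 0.00207), and it was the sole astrocyte call that held when each library was left out in turn. In oligodendrocytes and OPC it rose by 2.38 and 2.20 (edgeR adjusted p = 0.00772 and 0.0172). In microglia, where NS values were already 154.9 and 150.4 CPM, it reached 219.1 and 231.6 CPM, a log2 fold change of 0.60 (SE 0.155, edgeR adjusted p = 0.0135). The change of Trim30a was smaller in microglia than in neurons (difference -1.43 on the log2 scale) and than in astrocytes (-1.92), by edgeR interaction terms with adjusted p = 2.99e-07 and 0.000159. In neurons the rise of Trim30a was 0.79% and 1.48% of its level in the macrophages of the same library, within the range of macrophage markers there (up to 1.73% and 2.77%), a reference described below. The test against neurons called 1 gene of the list higher and 5 lower, with 4.39% of all genes called higher and 4.69% lower. It called fewer genes of the list when any 1 library was left out. The test against astrocytes called 1 lower, with 2.94% of all genes called higher and 3.09% lower, a share of the list near that of all genes. Between astrocytes and neurons edgeR called none of 38 genes, with 2.73% of all genes called higher and 1.47% lower, and 3 had an unadjusted p under 0.05 (13.5% of all genes). DESeq2 called none of the 9 genes of the list to which it gave an adjusted p (3.95% of all genes). Rnf213, a large ubiquitin ligase, rose in microglia from 64.6 and 87.7 to 162.4 and 205.7 CPM (log2 fold change 1.32, SE 0.209, edgeR adjusted p = 0.00103), and by 0.60 and 0.74 in astrocytes and OPC (edgeR adjusted p = 0.0455 and 0.0293).

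Parp9 and Parp14, ADP-ribosyltransferases of the same pathway, rose in oligodendrocytes by 3.15 and 3.96 on the log2 scale (edgeR adjusted p = 0.00683 and 0.00495). Parp14 rested on 1 and 3 UMIs in NS and 28 and 38 in COL there. Parp9 also rose in astrocytes by 0.98 and in microglia by 0.69 (edgeR adjusted p = 0.0383 and 0.0438). Dtx3l, the partner of Parp9, passed the test in astrocytes with a log2 fold change of 1.56 (edgeR adjusted p = 0.043). Usp18, which removes Isg15 and restrains the receptor, rose in oligodendrocytes, astrocytes and OPC by 1.61, 1.92 and 2.22 (edgeR adjusted p = 0.0386, 0.0406 and 0.0121). Isg15 itself could be tested in neurons alone and did not pass there. It had 1 and 1 UMIs in NS oligodendrocytes and 7 and 18 in COL.

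Among the other effectors, Bst2 (tetherin) rose in oligodendrocytes by 2.91 and in astrocytes by 2.32 (edgeR adjusted p = 0.00797 and 0.014). Rsad2 (viperin) rose in the same types by 2.92 and 2.16 (edgeR adjusted p = 0.0145 and 0.0403). In microglia Rsad2 was not tested, with 0 UMIs in both NS sums and 8 and 42 in COL, at least 5.51-fold higher against the floor. Sp100, a component of nuclear bodies, rose in microglia from 33.7 and 37.6 to 90.6 and 114.9 CPM (log2 fold change 1.57, SE 0.238, edgeR adjusted p = 0.000785). In oligodendrocytes Sp100 had 1 and 2 UMIs in NS and 20 and 37 in COL, a ratio of 18.0 (95% counting interval 5.87 to 90.1). That interval covers counting error only and leaves out the spread between libraries. Samd9l rose in oligodendrocytes by 3.09 (SE 0.61, edgeR adjusted p = 0.0113). Xaf1 did not pass the test in any type where it could be tested. It had 28.1 and 26.6 CPM in NS against 21.9 and 23.1 CPM in COL oligodendrocytes (log2 fold change -0.20), 2.77 and 4.71 against 6.41 and 9.49 CPM in astrocytes (1.16) and 13.5 and 13.9 against 18.7 and 29.2 CPM in microglia (0.87). Ifi44 had at most 10 UMIs in every sum of these types and was not tested.

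In neurons no gene of the list passed the test out of 35 tested, and only 2 of 23784 genes (0.00841%) did in all. Of the 35, 22 had an unadjusted p under 0.05, all higher in COL, where 28% of all genes tested had one in either direction. DESeq2 gave an adjusted p for 34 genes of the list and called 14, all higher, with 3.38% of all genes called higher. The edgeR count was 10 without a filter on low counts and 8 with a replicate block, and it also rose when either COL library was left out. The shares of all genes called in these fits are not given here, so the counts cannot be set against them. The median log2 fold change of the 35 was 1.19, against 0.02 over all genes tested. Some of the 35, such as Ifitm1 and Sp100, passed the filter on low counts only through their COL counts. This median and the 22 of 35 thus describe the genes that passed. Stat2 had 25.5 and 27.0 CPM in NS and 44.1 and 38.1 CPM in COL, and Irf9 had 6.40 and 6.51 CPM against 12.8 and 12.3 CPM. Both COL libraries lay well above both NS libraries for these genes, with log2 fold changes of 0.82 (SE 0.183) and 1.13 (SE 0.19). Ifnar2 and Ifnar1, the other genes with the highest neuronal CPM, had log2 fold changes of 0.23 and 0.34. Irf1 had 2.50 and 1.44 CPM in NS and 1.00 and 1.78 CPM in COL, overlapping values. The neuron clusters differed in their mix between the groups, and clusters 7 and 8, examined alone, gave 0 calls by edgeR (17 and 9 genes of the list tested, with 0.283% and 0.716% of all genes called higher and 0.0241% and 0.368% lower). DESeq2 also called 0, of 14 and 9 genes with an adjusted p, and 3.33% and 2.51% of all genes. At an unadjusted p under 0.05 edgeR gave 11 and 3 genes of the list, and 20.9% and 19.3% of all genes. With a replicate block, a pairing that is not established, edgeR called 10 genes of the list in cluster 7 and also gave a call in cluster 8.

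RNA released from other cells can enter any droplet, so a gene that is abundant in macrophages can appear in other nuclei of the same library. The summed level of 8 macrophage markers was higher in both COL libraries than in both NS libraries in each of the 5 types. It was 2.3 and 3.8 CPM in NS and 19.5 and 30.6 CPM in COL oligodendrocytes, with 5 and 3 of the 8 at 0 in NS and 0 and 1 in COL. It was 8.1 and 13.9 against 25.6 and 34.3 CPM in astrocytes, 2.9 and 5.0 against 18.5 and 26.1 CPM in OPC, 6.8 and 7.8 against 11.03 and 22.1 CPM in neurons, and 9.4 and 72.4 against 160.7 and 196.9 CPM in microglia. In COL macrophages it was 2713 and 2393 CPM. As a measured reference, the rise of each gene over its NS mean was expressed as a percent of its level in the macrophages of the same library and set beside that of 6 macrophage markers (Mrc1, F13a1, Ms4a7, Ccr2, Pf4 and Arg1). A marker had to reach at least 50 CPM in macrophages to be used, and no such floor was set for the genes of the list. In oligodendrocytes the markers lay between 0.279% and 3.40% in COL library 1 and between 0.659% and 4.42% in COL library 2. Of the 20 genes called there, 15 lay above every marker in both libraries, such as Irf9 (25.1% and 20.5%), Ddx60 (11.1% and 9.53%) and Stat2 (18.4% and 21.3%). Ifitm3, Parp14, Trim30a, Samd9l and Sp100 did not. A low macrophage level raises the percent. Some of the 15 lay under the floor of the markers in macrophages, such as Irf9 (38.9 and 39.1 CPM) and Ifit1 (13.2 and 7.89 CPM), while Ddx60 and Stat2 lay above it. Parp14 (1.95% and 2.44%), Trim30a (1.19% and 2.25%), Samd9l (3.07% and 2.85%) and Sp100 (1.07% and 1.86%) lay within the range of the markers in both libraries, and Ifitm3 (2.2% and 7.70%) did so in COL library 1.

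In astrocytes all 11 called genes exceeded every marker. The markers lay between 0.122% and 5.26% there in COL library 1 and between 0.688% and 4.48% in COL library 2. In COL library 1 Rsad2 (5.41%) and Ifitm3 (5.65%) lay only just above that range. Some of the 11 lay under the floor of the markers in macrophages, such as Ifit1 (13.2 and 7.89 CPM) and Rsad2 (36.2 and 25.3 CPM). In OPC 7 of 10 called genes exceeded every marker, Gbp3 among them, and the exceptions were Oasl2, Rnf213 and Trim30a. In OPC the rise of Gbp7 was 105% and 81.5% of the macrophage level, which was low (7.90 and 16.6 CPM). Gbp3 had 2 and 8 UMIs in the COL macrophage sums, too few for a percent to be read from them in OPC or in neurons. In neurons 10 of the 35 tested genes exceeded every marker in both libraries, among them Gbp3, Irf9 (16.3% and 15.1%) and Stat2 (14.5% and 11.5%), whereas Sp100 (0.671% and 1.42%) did not. When nuclei with any UMI of these markers were left out, 19 oligodendrocyte, 6 astrocyte and 10 OPC genes were called, and the ratios of the summed level were 1.83, 1.74 and 2.13. The shares of all genes called in these fits are not given here. In COL oligodendrocytes 1460 of 1627 and 1282 of 1558 nuclei stayed in. A nucleus can carry macrophage RNA without a UMI of these markers, so these values cannot show the part of that RNA. This reference was computed for neurons, oligodendrocytes, astrocytes and OPC and not for microglia, so the part of macrophage RNA in the microglial calls was not tested. It covers macrophage RNA alone, and the part of RNA from microglia and T cells was not tested.

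**Figure D4:**
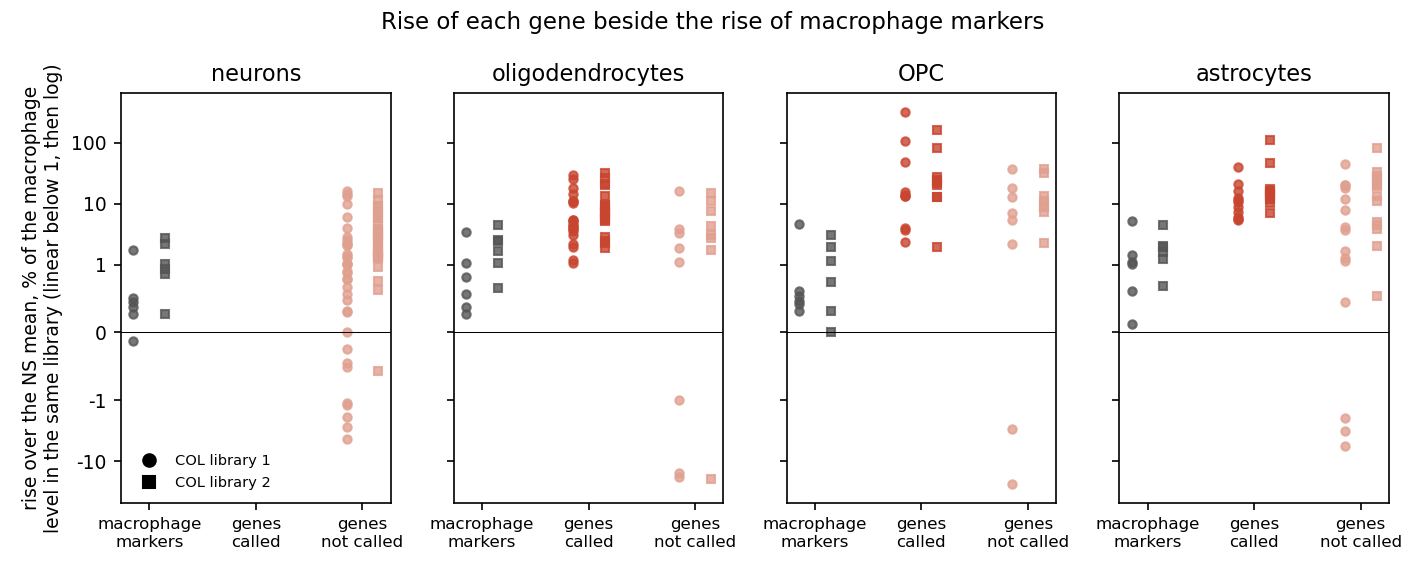
Rise of each gene over its NS mean as a percent of its level in COL macrophages of the same library (linear between -1 and 1, log beyond), for 6 macrophage markers (grey), called genes (red) and tested genes that were not called (pale), in 4 cell types; circles are COL library 1 and squares COL library 2. In oligodendrocytes, OPC and astrocytes most red symbols lie above the grey ones, and no gene was called in neurons.

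Microglia and macrophages of the COL libraries were compared within the same libraries, with the library as a term in the fit. Of 35 genes tested, 18 were higher and 2 lower in macrophages by edgeR, where 14.7% of all genes were called higher and 14.5% lower. DESeq2 called 8, all higher (5.28% of all genes). Ifitm3 was at 97.5 and 131.7 CPM in macrophages and 9.93 and 14.4 CPM in microglia, a log2 difference of 3.21 (SE 0.192, edgeR adjusted p = 2.83e-21). Ifitm2 and Ifitm1 were higher by 3.83 and 2.76 (edgeR adjusted p = 1.26e-15 and 1.33e-09), Isg15 by 2.89 and Samd9l by 2.63 (edgeR adjusted p = 1.23e-07 and 2.39e-15). Oas3, at 20.4 and 15.8 CPM in macrophages, had almost no UMIs in microglia and passed the filter on low counts through its macrophage sums. It could only come out higher there, and its fitted log2 difference of 5.93 (SE 0.697, edgeR adjusted p = 2.28e-10) gives no size. Oas2, Oasl2, Irf7 and Rsad2 were higher by 1.87, 1.77, 1.60 and 1.42 (edgeR adjusted p = 1.21e-10, 3.83e-10, 0.000372 and 6.84e-05). Eif2ak2 and Gbp7 were lower in macrophages, with log2 differences of -0.74 and -0.84 (edgeR adjusted p = 7.21e-06 and 0.0139). Stat2 and Ddx60 did not pass the test, at 122.5 and 103.0 against 98.2 and 100.8 CPM for Stat2. Both receptor chains were slightly higher in macrophages, Ifnar1 by 0.61 and Ifnar2 by 0.33 (edgeR adjusted p = 0.000733 and 0.0336). The genes with the highest CPM in macrophages, by library, were Rnf213 (262.8 and 244.7), Trim30a (265.4 and 241.4) and Ifnar2 (189.0 and 194.0). Since 2 libraries entered this fit, its residual spread comes from 4 sums with the library removed, and it borrows strength from all genes.

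To see whether many nuclei carried a few of these genes or a few carried many, each nucleus was thinned to 1000 UMIs. The share of neurons with UMIs of 2 or more of the 38 genes was 0.418% and 0.389% in NS and 1.02% and 1.26% in COL. In oligodendrocytes it was 0.851% and 0.796% against 2.15% and 3.59%, and in astrocytes 2.94% and 2.66% against 6.25% and 9.54%. Microglia had 20.4% and 23.1% in NS and 34.2% and 40.2% in COL, and COL macrophages 53.1% and 53.3%. The exact 95% Clopper-Pearson intervals of the single libraries, which cover counting error only, overlapped between NS and COL in OPC (3.08% and 3.57% against 5.77% and 7.92%) and did not overlap in neurons, oligodendrocytes and microglia. In astrocytes the interval of COL library 1 (3.27% to 10.7%) overlapped those of NS. Median depths before thinning were higher in COL, for example 9718 and 9086 UMIs in NS neurons against 15050 and 14899 in COL neurons, and before thinning the shares were 24.7% and 23.3% against 51.0% and 59.5% in neurons, 7.41% and 6.67% against 27.4% and 40.8% in oligodendrocytes, 23.2% and 19.6% against 51.3% and 70.6% in astrocytes, 51.1% and 53.5% against 85.4% and 90.2% in microglia, 28.5% and 22.8% against 58.7% and 73.9% in OPC, and 89.7% and 90.8% in COL macrophages.

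**Figure D5:**
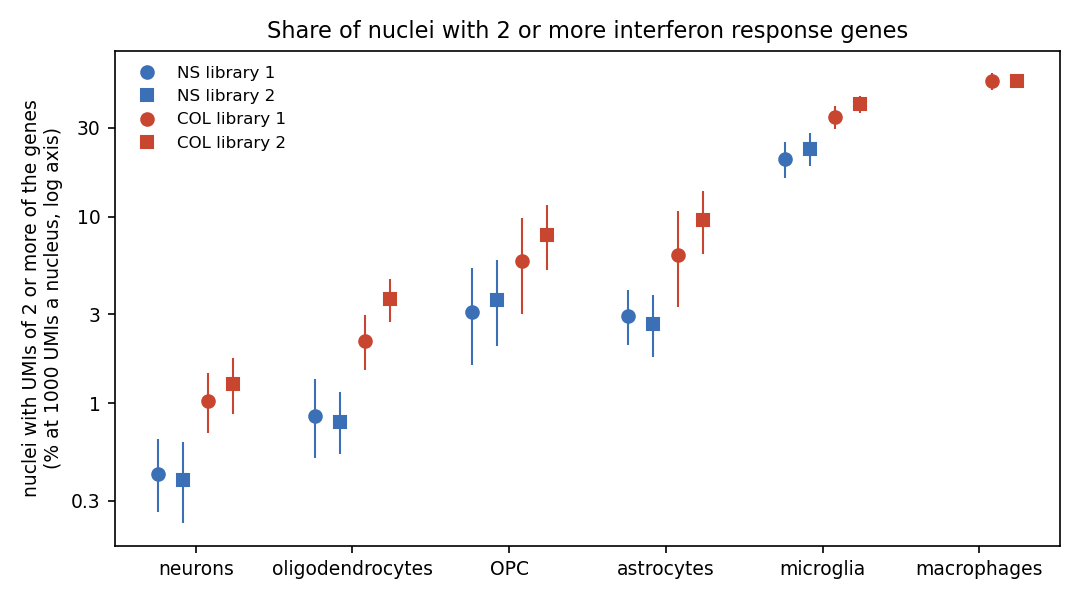
Percent of nuclei with UMIs of 2 or more of the 38 genes after thinning to 1000 UMIs a nucleus (log axis), by cell type and library; blue is NS, red is COL, and lines are exact 95% Clopper-Pearson intervals. Both COL shares lie above both NS shares in neurons, oligodendrocytes, OPC, astrocytes and microglia, with overlapping intervals in OPC and, for COL library 1, in astrocytes.

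At full depth, nuclei with UMIs of 10 or more of the 38 genes numbered 7 and 7 in the NS libraries and 154 and 255 in the COL libraries. In COL they held 24.3% and 29.9% of all UMIs of the list in 2.60% and 4.07% of nuclei. Macrophages had 73 and 116 of them, 22.8% and 24.2% of their nuclei, and microglia had 28 and 67 in COL against 1 and 2 in NS. Neurons had 0 and 0 in NS and 20 and 13 in COL, oligodendrocytes 0 and 1 against 10 and 5, OPC 0 and 0 against 2 and 12, and astrocytes 4 and 3 against 3 and 7. In astrocytes these were 0.335% and 0.283% of nuclei in NS and 1.55% and 2.67% in COL. The COL shares were 0.682% and 0.481% in neurons, 0.615% and 0.321% in oligodendrocytes and 0.962% and 3.96% in OPC. In COL microglia such nuclei held 27.0% and 43.9% of the UMIs of the list. Of the 20 in COL library 1 neurons, 8 came from the 118 nuclei of cluster 19. Of these neurons, 18 of the 20 and 10 of the 13 neurons were not scored as doublets. The counts of this paragraph were not thinned, and a deeper nucleus can reach 10 genes more easily. Median depths were higher in COL in neurons, oligodendrocytes, OPC, astrocytes and microglia, for example 2230 and 1995 UMIs in NS microglia against 4051 and 4316 in COL. The part of depth in these counts was not tested.

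A second list held other genes of the interferon pathway. In oligodendrocytes 18 of 44 tested were higher and 1 lower (10.1% and 12.5% of all genes), in astrocytes 4 of 34 were higher (7.77%), in OPC 7 of 28 were higher (8.31%), and in microglia 11 of 50 were higher and 4 lower (13.8% and 14%). DESeq2 called 2 of 31 higher in astrocytes, 2 of 27 in OPC and 5 of 51 in microglia (4.39%, 3.69% and 7.52% of all genes). It also called 2 lower in microglia and 16 of 44 higher in oligodendrocytes, with shares of all genes not given here. None of 61 was called in neurons, where 23 had an unadjusted p under 0.05 (28% of all genes) and DESeq2 called 14 of 57 higher (3.38% of all genes). Nlrc5, the transactivator of MHC class I genes, was called higher in all 4 glial types. It went from 0.949 and 0.978 to 14.7 and 16.7 CPM in oligodendrocytes (log2 fold change 4.08, SE 0.316, edgeR adjusted p = 0.000565) and from 13.5 and 22.3 to 104.0 and 88.3 CPM in microglia (log2 fold change 2.46, SE 0.293, edgeR adjusted p = 0.000185). Its log2 fold change was 2.71 in astrocytes and 3.32 in OPC (edgeR adjusted p = 0.000908 and 0.000174). Irgm1, an immunity-related GTPase, was also called in all 4, with log2 fold changes between 1.44 and 2.65. In oligodendrocytes Slfn2, Parp10, Slfn5 and Slfn8 had log2 fold changes of 4.06, 3.60, 3.53 and 3.44, each on at most 3 UMIs in an NS sum. COL macrophages had 85.0 and 88.9 CPM of Slfn2, 22.4 and 25.8 of Parp10, 125.8 and 130.0 of Slfn5 and 94.2 and 93.5 of Slfn8. Ifi207 and Ifi204 were also called in oligodendrocytes, with 0 UMIs in both NS sums and 15 and 36 UMIs (Ifi207) and 14 and 26 UMIs (Ifi204) in COL. The COL level of Ifi207 was 1.59 and 3.55 CPM in oligodendrocytes and 254.2 and 197.8 CPM in macrophages, and that of Ifi204 was 1.48 and 2.56 CPM against 111.95 and 103.5 CPM. The part of macrophage RNA in these calls was not tested. Cmpk2 was lower, at -1.54 (edgeR adjusted p = 0.0454).

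In astrocytes Iigp1 and Slfn8 were the other calls, with log2 fold changes of 4.24 and 2.47. Slfn8 rested on 5 and 2 UMIs in NS astrocytes against 5 and 10 in COL (4.01 and 5.27 CPM), with 94.2 and 93.5 CPM in COL macrophages, and Iigp1 on 2 and 2 against 19 and 10 (15.2 and 5.27 CPM), with 9.88 and 7.89 CPM in COL macrophages. In OPC the other calls were Irf8, Slfn9, Ifi30, Herc6 and Jak2, with 3.50, 2.01, 1.51, 1.32 and 0.74. Irf8 in OPC rested on 1 and 1 UMIs in NS against 9 and 17 in COL (5.38 and 6.51 CPM), and COL microglia had 253.0 and 274.8 CPM and COL macrophages 109.3 and 125.1 CPM. Ifi30 in OPC had 10 and 7 UMIs against 19 and 31 (11.4 and 11.9 CPM in COL), with 106.0 and 167.0 CPM in COL macrophages. The part of RNA from these cells in the astrocyte and OPC calls was not tested. The microglial calls that were lower were Tmem173 (STING), Tlr3, Irgm2 and Ifngr1, the interferon gamma receptor chain. Ifngr1 went from 146.8 and 171.3 to 76.0 and 78.7 CPM (log2 fold change -0.998, SE 0.181, edgeR adjusted p = 0.00212) and Tmem173 from 61.9 and 61.3 to 16.4 and 21.4 CPM (log2 fold change -1.64, SE 0.273, edgeR adjusted p = 0.00131). The summed level of 7 microglia markers in the same nuclei was 5729 and 5288 CPM in NS and 3273 and 3228 CPM in COL. Interferon genes were looked at for 6 symbols of that list, and the others were not analysed here. Over all nuclei of the 4 libraries Ifng had 0, 0, 1 and 1 UMIs, Ifna2 0, 1, 1 and 0, Ifne 1, 0, 1 and 1, while Ifnz and Ifnl3 had a single UMI each, and for these genes a change in level was not detectable at this depth. Ifnk had 13, 22, 0 and 9 UMIs, of which 10, 18, 0 and 6 lay in oligodendrocytes (1.36 and 1.60 CPM in NS, 0 and 0.591 CPM in COL), a difference that did not pass the test there (log2 fold change -2.18, SE 0.834, edgeR adjusted p = 0.0896).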

How the data were processed

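Nuclei of the mouse thalamus were profiled by droplet snRNA-seq. Per the labels and the study's methods, the authors aligned reads to mm10 with Cell Ranger 1.2.0, and the deposited tables hold raw UMI counts per gene and nucleus, without normalization. Library totals over all barcodes were 68746459 to 77557870 UMIs, and sums over few nuclei rest on few UMIs. A nucleus was retained when it had over 50 genes detected and mitochondrial UMIs under 5% (32291 of 32332). They were clustered with Seurat 5.3.0 in R 4.3.3 on 5000 variable genes, the interferon lists left out, and 15 principal components at resolution 0.8. Clusters were named from marker lists with at least 3 markers, by naming rules set after the clusters were seen, and clusters of which more than 50% were scored as doublets (scanpy 1.11.5) were kept apart as mixed. Other doublets stayed in, and an alternative removed them.

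The counts of each cell type were added up in each library and tested with edgeR 4.0.16 (quasi-likelihood, TMM normalization, filterByExpr, Benjamini-Hochberg threshold 0.05 over all genes tested). Differences between cell types were interaction terms with the library as a block. DESeq2 1.42.0, no filter on low counts, RLE normalization, a marker gate, removal of doublets, a replicate block and leaving out each library were alternatives. The COL against NS fits by edgeR and DESeq2, in the cell types compared and over all nuclei, were run on simulated data. So were the edgeR fits of microglia minus neurons, oligodendrocytes minus neurons and macrophages against microglia. The other interaction fits and the alternatives to the main settings were not simulated. The members, the gene lists and the cell type markers were chosen with earlier results of these data known. Single genes are named where called (where more than 10 were called, the 10 with the largest change in both libraries), where among the 3 highest CPM of a type, or where they are Ifnar1, Ifnar2, Stat2, Irf1, Irf7 or Irf9, and other genes were named to complete a role after their values were seen. The strand setting of the counting is not given in the sources used here. The result of 1 gene of the second list is not reported here.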

Additional observations from a re-analysis of the deposited data

Results flagged for a closer look

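The COL against NS change of 11 genes differed between cell types in at least 1 of the edgeR interaction tests, each with Benjamini-Hochberg adjustment. Against neurons, the log2 fold change in microglia was smaller for Ddx60 by 1.44 (difference -1.44, SE 0.346, adjusted p = 0.000828), for Trim30a (-1.43, SE 0.243, adjusted p = 2.99e-07) and for Parp14 (-0.89, SE 0.311, adjusted p = 0.0484). It was also smaller for Bst2 (-2.21, SE 0.681, adjusted p = 0.0175) and Sp100 (-2.36, SE 0.459, adjusted p = 1.34e-05), and larger for Rnf213 (1.0, SE 0.222, adjusted p = 0.00019). In this test 4.69% of all genes were called lower and 4.39% higher. The count of 6 calls fell when any 1 library was left out, and DESeq2 called 5 of 26 with an adjusted p. The shares of all genes called in these other fits are not given here. In neurons the rises of Sp100 (0.671% and 1.42% of the macrophage level), Trim30a (0.79% and 1.48%) and Parp14 (0.481% and 0.623%) lay within the range of macrophage markers (-0.127% to 1.73% and 0.269% to 2.77%), and that of Ddx60 (2.23% and 2.38%) did so in COL library 2, while that of Bst2 (2.53% and 4.72%) lay above it. The part of macrophage RNA in these differences was not tested. Trim30a, Ddx60, Parp14, Bst2 and Sp100 all had NS levels in microglia far above those in neurons. These log2 differences compare ratios and not rises in CPM. Against neurons, the change in oligodendrocytes was larger for 6 genes, a count that depended on which library was left out. These were Irf1 (3.29, adjusted p = 0.00146), Isg15 (3.34, SE 0.895, adjusted p = 0.0216), Parp14 (3.0, SE 0.667, adjusted p = 0.00587) and Parp9 (2.8, SE 0.438, adjusted p = 0.000277), as well as Ddx60 (2.17, SE 0.519, adjusted p = 0.0102) and Eif2ak2 (0.92, SE 0.283, adjusted p = 0.0479). In the same comparison DESeq2 called 2 of the 15 genes of the list to which it gave an adjusted p, and its share of all genes is not given here. In oligodendrocytes the rise of Parp14 (1.95% and 2.44% of the macrophage level) lay within the range of macrophage markers (0.279% to 3.40% and 0.659% to 4.42%), and the part of macrophage RNA in this difference was not tested. The change of Ifnar2 was larger in OPC than in neurons by 1.2, where 2.25% of all genes were called higher and 1.14% lower. Between microglia and astrocytes the change of Trim30a differed by -1.92 (SE 0.314, adjusted p = 0.000159), where 3.09% of all genes were called lower and 2.94% higher. Each of these 2 tests called 1 gene of the list, a share near that of all genes. Between astrocytes and neurons edgeR called none of 38 genes, with 3 at an unadjusted p under 0.05 (13.5% of all genes), and DESeq2 none of 9 with an adjusted p.

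Nuclei that entered no comparison also carried UMIs of the list. The unnamed cluster had 182.5 and 120.5 CPM in NS and a COL mean of 782.2 CPM, from 1283.3 and 281.0 CPM, and 1 nucleus held 72.7% of the list's UMIs in COL library 1. Mixed clusters had 166.5 and 152.8 CPM in NS and a COL mean of 349.0 CPM. These differences were not tested.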

How the results depend on the processing

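List genes called in COL against NS in oligodendrocytes, astrocytes, microglia, OPC and all nuclei (20, 11, 11, 10 and 29) were higher in COL under every alternative run for them. Of the recomputed results, 174 kept their direction and side of the threshold or moved little, 32 gained calls, 28 lost calls and 22 values moved beyond their spread. The cause of each change below was not tested. In neurons the count of list genes went from 0 to 14 with DESeq2, 10 without a filter on low counts and 8 with a replicate block, and that of other pathway genes from 0 to 14, 13 and 10, with 1 in neuron cluster 7 alone. Neuron cluster 7, neuron cluster 8, nuclei without macrophage marker UMIs, nuclei with fewer than 10 list genes and the sum without Ifnar1 and Ifnar2 were chosen after seeing the data. In cluster 7 the replicate block gave 10 list genes and 10 other genes (2 with DESeq2), and in cluster 8 it gave 1 list gene. Replicate numbers shared no stated batch. Same-numbered libraries deviated together only weakly (correlations between 0.047 and 0.174 over 2 pairs), so the pairing is not established, and the block gave 8 other pathway genes in astrocytes.

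List genes called by DESeq2 were 1 in astrocytes, 6 in microglia, 2 in OPC, 2 for oligodendrocytes minus neurons and 8 for macrophages against microglia. Other pathway genes were 2 in astrocytes, 7 in microglia and 2 in OPC. Without a filter on low counts, list genes were 16 in OPC, 2 for microglia minus astrocytes and 13 for macrophages against microglia, and other genes 29 in oligodendrocytes, 11 in astrocytes, 23 in microglia and 13 in OPC. A marker gate gave 20 in microglia and 3 for microglia minus astrocytes, and removal of doublets gave 2 for the latter. Nuclei without macrophage marker UMIs gave 6 in astrocytes. For some of the DESeq2 fits the share of all genes called stands above. For the other fits of this section it is not given here, so these counts cannot be set against it.

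The difference in the share of nuclei with 2 or more list genes (COL minus NS, percentage points) was 2.40 in neurons, 5.14 in oligodendrocytes, 10.9 in astrocytes and 10.6 in OPC at 2000 UMIs. Without thinning it was 31.3, 27.0, 39.5 and 40.7, and 35.5 in microglia. The share in COL macrophages was 76.1% at 2000 UMIs, 90.3% without thinning and 47.5% with the marker gate. The summed ratio without Ifnar1 and Ifnar2 was 1.72 in neurons and 2.04 in oligodendrocytes, the marker gate gave 2.19 in microglia, and leaving out nuclei with 10 or more list genes, a choice that itself lowers the ratio, gave 1.54 in astrocytes and 1.29 in microglia. The macrophage sum was 1852 CPM with the gate, 2560 with doublets removed, 2337 without the gene with the most UMIs, 2156 without the receptors and 1480 without nuclei with 10 or more list genes.

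With each library left out in turn, list genes called ranged from 0 to 14 in neurons, 0 to 0 in cluster 7, 0 to 1 in cluster 8, 14 to 22 in oligodendrocytes, 2 to 6 in astrocytes, 7 to 17 in microglia, 2 to 14 in OPC and 22 to 31 over all nuclei. The neuron count was 5 without COL library 1 and 14 without COL library 2. Other pathway genes ranged from 0 to 19 in neurons, 0 to 1 in cluster 8, 11 to 20 in oligodendrocytes, 3 to 7 in astrocytes, 13 to 15 in microglia, 1 to 11 in OPC and 27 to 41 over all nuclei. Interaction calls ranged from 3 to 4 for microglia minus neurons, 0 to 0 for astrocytes, 3 to 8 for oligodendrocytes and 1 to 1 for OPC against neurons, and 1 to 2 for microglia minus astrocytes. Leaving out a library was not run for macrophages against microglia, which has no spare degree of freedom then. Each of the fits above had 1 library in a group, so its spread came from the other group alone. The shares of all genes called in them are not given here.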

Other observations

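T and NK cells numbered 8 and 4 in NS and 53 and 77 in COL, and their summed level was 2650, 3458, 2724 and 2571 CPM, with Sp100 the gene of the list with the most UMIs (11, 8, 132 and 129). Vascular nuclei (34, 63, 27 and 47) had 1328 and 737 CPM in NS and 865 and 1000 CPM in COL, overlapping values.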
